A study of Mus musculus with 4 samples.

Results

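Heparan sulfate is a sulfated sugar chain that cells of nearly every tissue carry on a small set of core proteins, and 10 genes around it were followed: the sulfatases Sulf1 and Sulf2, the syndecans Sdc1, Sdc2, Sdc3 and Sdc4, and the glypicans Gpc1, Gpc3, Gpc4 and Gpc6. They were listed by name from the 21090 genes of the expression table. No rule on their values was used, but earlier results of these data were known when they were chosen. Of the 10, 9 reached the mean level at which a gene was tested, as did 10871 genes in all. The values come from RNA sequencing (RNA-seq) of 4 tumor cell lines, each with a single library. By the paper's account, the parental line came from the mammary tumor of a Pik3caH1047R;Trp53R270H;MMTV-Cre mouse that also had lung metastasis. The knockout lines were made from that line. In such mice the MMTV promoter drives Cre recombinase, and Cre switches on activated Pik3ca and mutant Trp53 in mammary cells. The control group (n = 2) held the parental line and the vector control line, and the knockout group (n = 2) held lines in which Cas9 had cut S100a4 in exon 3 or in exon 2. The edited lines received Cas9 and a guide RNA from a lentivirus and were selected with puromycin. Whether the vector control line was infected and selected in the same way is not stated. The labels give the exon 2 line another cell number than the other 3 lines, so its origin from the same parental line is not certain. Whether a line is a single clone is not stated. The medium in which the tumor cells were established held basic fibroblast growth factor and heparin, a close relative of heparan sulfate. Nothing in the labels says that the libraries of a group came from separate cultures, so the p-values measure the spread between these libraries, and no batch is given.

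Syndecans span the membrane and pass signals to the cytoskeleton through short tails, whereas glypicans are tied to the outer membrane by a lipid anchor. Their heparan sulfate chains hold fibroblast growth factors, Wnt proteins, chemokines and other ligands near their receptors. Sulf1 and Sulf2 are secreted enzymes that remove 6-O-sulfate groups from finished chains outside the cell, which changes which ligands are held. In mammary tumors the family is known above all for syndecan-1, a marker of epithelial cells that stromal fibroblasts can also express, and for glypican-1.

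The unit is RPKM, a read count divided by gene length and by the library's total, so that levels of different genes can be set side by side. The total behind the RPKM ran from 22472024 to 31235456 reads per library. S100a4, the edited gene, stood at 3576 RPKM in parental cells, 4741 in vector control cells, 1136 in exon 3 and 1105 in exon 2 knockout cells. The log2 change of S100a4 from controls to knockouts was -1.88 (SE 0.311, limma with Benjamini-Hochberg adjusted p = 0.0731), so its transcript was lower in both edited lines and still abundant. RPKM does not show whether a transcript is intact. The paper reported truncating mutations in nearly all S100a4 transcripts of the knockout lines, and loss of the protein by Western blot. Of 6 epithelial markers, Krt8 (27.5 to 78.9 RPKM) and Krt18 (6.10 to 60.2 RPKM) were expressed in every library and Epcam, Cdh1, Krt5 and Krt14 were under 1 RPKM in each, while all 7 mesenchymal markers examined were expressed, among them Vim at 1362 to 2418 RPKM. Endothelial and adipocyte markers were under 1 RPKM throughout, and of the leukocyte markers only Cd68 was above 1 RPKM. In bulk libraries fewer cells of a type and less RNA per cell cannot be told apart.

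Upstream sequence is shown for Sulf2, the more abundant sulfatase, and for Sdc3, the syndecan that was lower in both knockouts. Each is the stretch of 250 bases before a RefSeq transcript start (GRCm38.p6), 5′ to 3′ on the gene's strand, and lies outside the GENCODE gene. Of the 5 motifs searched on both strands, 2 had matches here, which are in capitals: the GC box (GGGCGG) and TATAA.
Sulf2, chr2:166155684-166155933, minus strand: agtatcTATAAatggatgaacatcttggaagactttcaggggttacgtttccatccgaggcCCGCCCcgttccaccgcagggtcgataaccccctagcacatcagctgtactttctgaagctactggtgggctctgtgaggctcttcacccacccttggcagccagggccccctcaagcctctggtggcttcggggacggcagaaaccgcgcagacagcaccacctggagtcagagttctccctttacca
Sdc3, chr4:130792287-130792536, plus strand: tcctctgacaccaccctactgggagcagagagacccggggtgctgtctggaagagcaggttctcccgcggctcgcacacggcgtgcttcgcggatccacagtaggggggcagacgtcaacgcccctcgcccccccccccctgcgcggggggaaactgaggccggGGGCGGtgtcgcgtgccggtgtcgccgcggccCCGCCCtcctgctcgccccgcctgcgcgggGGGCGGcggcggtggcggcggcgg
The Sulf2 window held 1 GC box and 1 TATAA match and had 57.2% G and C. The Sdc3 window held 3 GC boxes and had 76.4% G and C. Windows were found for 6 of the 10 genes, 7 windows in all because Sulf2 has 2 starts, and 6 of the 7 held a GC box. Among all 32851 mouse windows of this length, 32.7% held a GC box, 22.8% TATAA, 33.8% CCAAT, 6.75% the AP-1 motif (TGANTCA) and 6.02% the E box (CACGTG). None of the 7 windows held TGANTCA or CACGTG. These matches describe the letters of the windows and nothing more.

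Sulf1 (chromosome 1, 12692277 to 12861192, GRCm38) was the scarcest of the tested members and the one that differed most between lines. It stood at 6.59 RPKM in the parental line (701 reads), 0.416 in the vector control (36 reads), 1.91 in exon 3 (153 reads) and 0.771 in exon 2 knockout cells (59 reads). The parental line was thus above the other 3 lines, and both knockouts lay between the controls. The parental level was 15.8 times that of the vector control (95% interval 11.3 to 22.8, counting error only). The log2 change from controls to knockouts was -0.53 (SE 0.647, adjusted p = 0.677), less than the spread between the controls, and was -0.07 after correction for GC content and length. It rested on the choice of control, being -1.74 against the parental line alone and 0.68 against the vector control alone. Every change given as a log2 value is a difference in log2(RPKM + 1), which understates ratios of genes as low as this one.

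Sulf2 (chromosome 2, 166073089 to 166155663) was the main sulfatase transcript in each line, at 46.5 RPKM in parental cells, 15.0 in vector control cells, 39.2 in exon 3 and 28.2 in exon 2 knockout cells. The vector control was again lowest and the knockouts again fell between the controls. Parental Sulf2 was 3.10 times the vector control level (95% interval 2.90 to 3.31). The group change was 0.32 (SE 0.454, limma adjusted p = 0.724). It was -0.47 against the parental line alone and 1.10 against the vector control alone. Summed over both sulfatases, the level was 34.2 ± 26.6 RPKM in controls and 35.1 ± 8.58 in knockouts (SD, n = 2 and n = 2). This gave an exact permutation p of 1, two-sided, in a design whose smallest p is 0.333. Sulf1 made up 12.4% of that sum in the parental line and between 2.66% and 4.65% in the other 3 lines. The ratio of Sulf2 to Sulf1 was 7.05 in the parental line, 20.5 in the exon 3 knockout, 36 in the vector control and 36.6 in the exon 2 knockout.

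Genes whose profile over the 4 libraries was closest to each sulfatase were found as the smallest Euclidean distance between mean-centred log2(RPKM + 1) values, over all tested genes. For Sulf1 these were Col1a2 (distance 0.0785), a chain of type I collagen, then Sdk1 (0.288), a cell adhesion protein, and Itih5 (0.306), which binds hyaluronan. Col1a2 stood at 808, 149, 297 and 194 RPKM in the parental, vector control, exon 3 and exon 2 lines. For Sulf2 they were Hhipl1 (0.145), Usp2 (0.160), a deubiquitinase, and Mgp (0.188), matrix Gla protein. Mgp stood at 2427, 713, 1796 and 1263 RPKM in the same order. The closest other member was Sulf2 for Sulf1 (1.05) and Gpc4 for Sulf2 (0.624). With 4 points per gene, many genes have a like profile, and nothing about shared control follows.

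**Figure D1:**
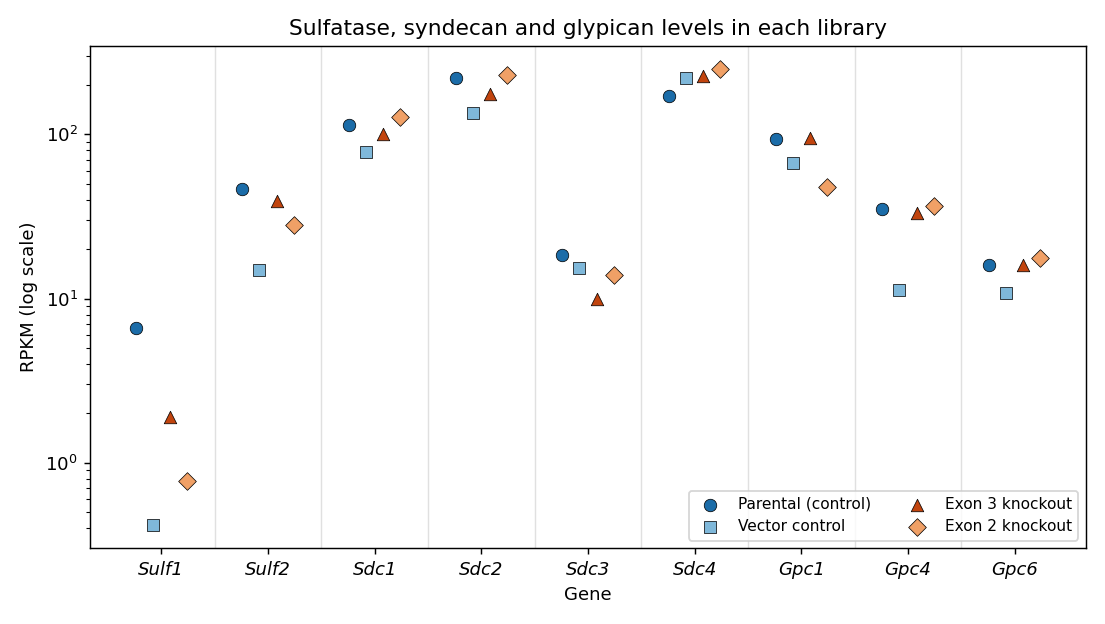
RPKM on a log axis of the 9 tested members in each library, 1 point per library, with controls in blue and knockouts in orange. The vector control square is the lowest point for Sulf1, Sulf2, Sdc1, Sdc2, Gpc4 and Gpc6, and only Sdc3 and Sdc4 have both knockouts on one side of both controls.

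Among the syndecans, Sdc1, Sdc2 and Sdc4 were abundant and Sdc3 was not. Sdc4, which joins integrins at focal adhesions and lies on chromosome 2 from 164424247 to 164443887, stood at 172 RPKM in parental cells, 221 in vector control cells, 228 in exon 3 and 251 in exon 2 knockout cells. Both knockouts were above both controls, though the exon 3 knockout exceeded the vector control by only 0.04 on the log2 scale. The group change was 0.29 (SE 0.297, adjusted p = 0.601). After a correction of each library for GC content and gene length it was -0.0023, and the groups overlapped.

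Sdc3 (chromosome 4, 130792537 to 130826319), known best from nerve and muscle, was the syndecan with the lowest level, at 18.5 RPKM in parental cells, 15.4 in vector control cells, 9.96 in exon 3 and 13.9 in exon 2 knockout cells. It was the only member with both knockouts below both controls, and its knockout mean was 70.3% of the control mean. The gap between the nearest pair, exon 2 knockout and vector control, was -0.14 on the log2 scale. The group change was -0.49 (SE 0.327, adjusted p = 0.428). Sdc3 kept a negative change in all 13 alternative analyses, from -0.71 to -0.27, and with quantile normalization its groups overlapped.

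Sdc1 and Sdc2 showed the same order of lines, with the vector control lowest. For Sdc1, the epithelial syndecan, the values were 114, 78.2, 100 and 127 RPKM in the parental, vector control, exon 3 and exon 2 lines. For Sdc2, the syndecan typical of mesenchymal cells, they were 221, 135, 177 and 230. In both genes the exon 2 knockout was highest, followed by the parental line, so that the groups overlapped. The group changes were 0.25 (SE 0.317, adjusted p = 0.683) for Sdc1 and 0.23 (SE 0.332, adjusted p = 0.731) for Sdc2. Against the parental line alone they were -0.02 and -0.13, and against the vector control alone 0.52 and 0.58. After correction for GC content and length they were -0.0031 for Sdc1 and 0.45 for Sdc2.

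The summed syndecan level was 487 ± 54.3 RPKM in controls and 569 ± 76 in knockouts (SD, n = 2 and n = 2, exact permutation p = 0.667, two-sided). Its makeup differed most between the 2 controls. Sdc2 led in the parental line with 42.0% of the sum against 32.7% for Sdc4, whereas in the vector control Sdc4 took 49.2% and Sdc2 30.0%. In the knockouts Sdc4 took 44.2% (exon 3) and 40.4% (exon 2). Sdc3 had 3.52% and 3.43% in the controls and 1.93% and 2.23% in the knockouts.

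Gpc1 (chromosome 1, 92831645 to 92860779), the most abundant glypican, stood at 94.0 RPKM in parental cells, 66.9 in vector control cells, 95 in exon 3 and 47.8 in exon 2 knockout cells. The exon 3 knockout was level with the parental line and the exon 2 knockout was below every other line. The exon 3 level was 1.99 times the exon 2 level (95% interval 1.88 to 2.11, counting error only), which among the tested members only Sulf1, at 2.48 times, exceeded. The group change was -0.23 (SE 0.368, adjusted p = 0.754), and it was 0.26 without the exon 2 knockout, -0.72 without the exon 3 knockout and -0.40 after correction for GC content and length.

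Gpc4 gave the largest group change of the members. Its levels were 35.3 RPKM in the parental line (1846 reads), 11.3 in the vector control (479 reads), 33.1 in exon 3 (1300 reads) and 36.8 in exon 2 knockout cells (1385 reads). The vector control alone was low and the other 3 lines were close to each other. The group change of 0.77 (SE 0.445, limma adjusted p = 0.362) was therefore set by that library. It was -0.02 against the parental line alone and 1.55 against the vector control alone. Parental Gpc4 was 3.13 times the vector control level (95% interval 2.83 to 3.47).

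Gpc6 stood at 16.1, 10.8, 16 and 17.8 RPKM in the parental, vector control, exon 3 and exon 2 lines, with the vector control lowest and the other 3 lines close together. Its group change was 0.33 (SE 0.330, adjusted p = 0.593), and 0.06 without the vector control. Gpc3, the X-linked neighbor of Gpc4, was all but silent, with 1, 0, 2 and 1 reads in the same order of lines (0.0175, 0, 0.0467 and 0.0244 RPKM). The count of 0 in the vector control allows a level of up to 0.0647 RPKM (3 reads), and the gene was not tested. Gpc3 and Gpc4 lie 107173 bases apart on chromosome X, at 52272426 to 52613950 and 52053021 to 52165252 (GRCm38), both on the minus strand.

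The summed glypican level was 117 ± 40.0 RPKM in controls and 123 ± 29.6 in knockouts (SD, n = 2 and n = 2, exact permutation p = 1, two-sided). Gpc1 took 75.2% of the sum in the vector control, 64.6% in the parental line, 65.9% in exon 3 and 46.7% in exon 2 knockout cells. In the exon 2 knockout the share of Gpc4 was 36%, against 24.3% in the parental line, 22.9% in the exon 3 knockout and 12.7% in the vector control.

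**Figure D2:**
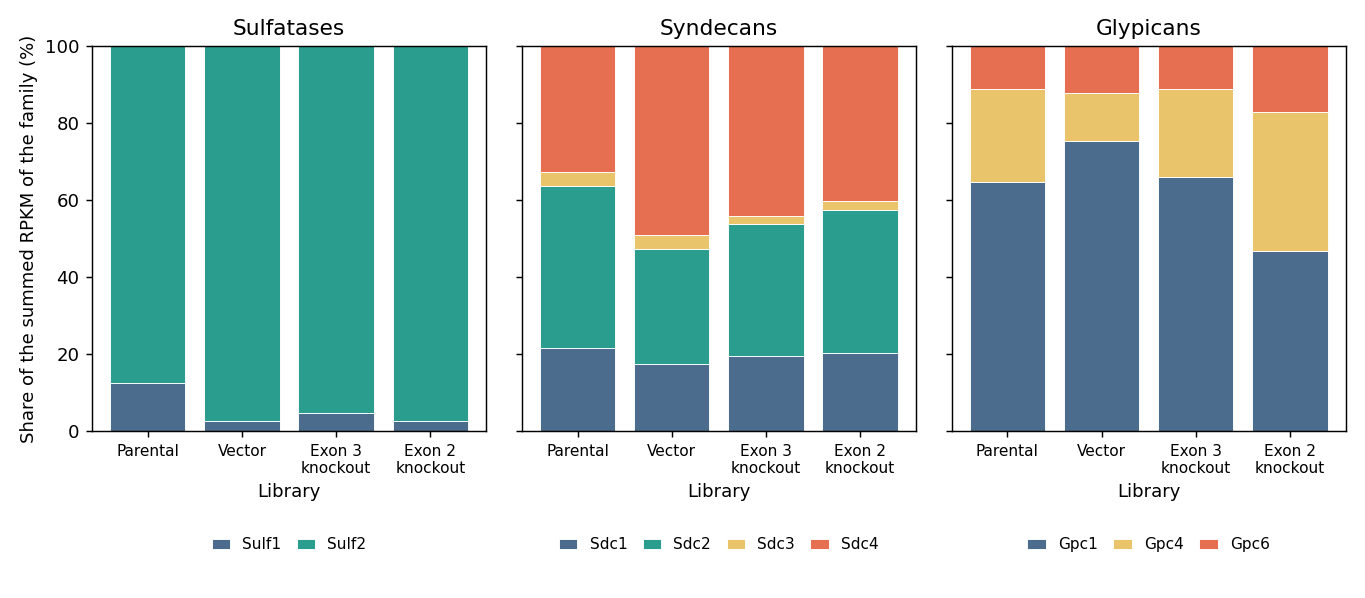
Share of each gene in the summed RPKM of its family (percent, from 0 to 100), in 1 bar per library. Sulf2 makes up most of the sulfatase level in every library, Sdc4 exceeds Sdc2 in all libraries but the parental one, and Gpc1 has its smallest share, 46.7%, in the exon 2 knockout; Gpc3 is too low to be seen.

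Across the 9 tested members, most differences between knockouts and controls were small beside the spread of the libraries. For Sdc3 the group change (-0.49, SE 0.327) was narrowly larger than the difference between its knockouts (0.44) and larger than that between its controls (-0.25). The share of all genes with this pattern was not counted. None of the 9 passed an adjusted p of 0.05 (limma, Benjamini-Hochberg), a threshold met by 2 of 10871 genes (0.0184%), or by limma's voom on recovered reads, and none had an unadjusted p under 0.05, against 19.1% of all genes. Adjusted p-values ran from 0.362 to 0.754. One member (Sdc3) had both knockouts below both controls, against 31.2% of all genes, and 1 (Sdc4) had both above, against 21.9%. On the scale of log2(RPKM + 1) none was at least 2-fold lower in all 4 pairs of a knockout and a control (1.73% of all genes) and none at least 2-fold higher (0.267%). In 6 of the 9 the change was smaller than its standard error. The median change of the members was 0.25, beside -0.08 for all tested genes.

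Between the 2 controls the members differed more. Sulf1, Sulf2 and Gpc4, 3 of the 9 (33.3%), were at least 2-fold lower in the vector control than in the parental line, against 5.19% of all tested genes, and none was at least 2-fold higher, against 3.34%. The vector control was the lowest of the 4 libraries for 6 of the 9 (66.7%), namely Sulf1, Sulf2, Sdc1, Sdc2, Gpc4 and Gpc6, against 18.1% of all genes. Sdc4 was the only member higher in the vector control. The median difference, vector control minus parental line, was -0.54 for the members and 0.16 for all genes. For 8 of the 9 the controls differed from each other by more than the groups did, which held for 47.1% of all genes. Corrected for GC content and gene length, the differences of Sulf1, Sulf2 and Gpc4 were -2.38, -1.43 and -1.73. With 1 library per line these differences have no replicate check. The members were chosen with earlier results of these data known, so the shares beside all genes are a description and not a test.

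Between the 2 knockouts no member was at least 2-fold apart on the scale of log2(RPKM + 1), on which 2.43% of all genes were 2-fold lower in the exon 2 than in the exon 3 knockout and 2.57% were 2-fold higher. By the ratio of RPKM itself Sulf1 was past 2-fold, its exon 3 level being 2.48 times its exon 2 level (95% interval 1.83 to 3.41, counting error only). On the log2 scale Sulf1 differed by -0.72 with the pseudocount of 1 and by -1.21 with a pseudocount of 0.1. Gpc1 differed by -0.98 and Sulf2 by -0.46. Sdc1, Sdc2 and Sdc3 were higher in the exon 2 knockout, by 0.34, 0.38 and 0.44.

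**Figure D3:**
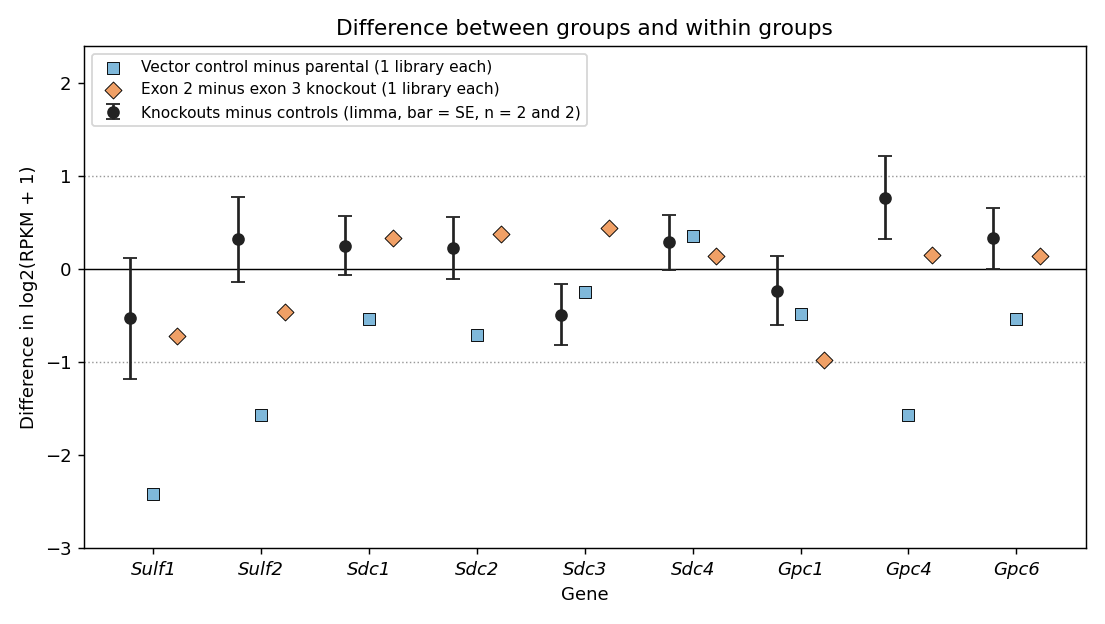
Differences in log2(RPKM + 1) for the 9 tested members: knockouts minus controls (circles, bars are the limma standard error, n = 2 and 2), vector control minus parental line (squares) and exon 2 minus exon 3 knockout (diamonds), with dotted lines at a 2-fold difference. The squares of Sulf1 (-2.42), Sulf2 (-1.57) and Gpc4 (-1.57) lie beyond the dotted line while all circles lie within it.

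Cell type markers differed between the controls as well. The epithelial keratins Krt8 and Krt18 were lowest in the vector control, at 27.5 and 6.10 RPKM against 69.0 and 60.2 in the parental line. Of the 7 mesenchymal markers, 3 (Fn1, Col1a1 and Col1a2) were at least 2-fold lower in the vector control, against 5.19% of all tested genes. Vector control minus parental line, Vim, Cdh2, Twist1 and Zeb1 differed by -0.23, -0.13, -0.27 and 0.17 on the log2 scale. The list summed to 4621 RPKM in the parental line and to 2189 to 2485 in the other 3 lines. Epithelial markers summed to 130 RPKM in parental cells, 34.3 in vector control cells, 107 in exon 3 and 74.8 in exon 2 knockout cells. Leukocyte markers summed to 3.38 to 13.2 RPKM, nearly all of it Cd68, with Ptprc at or near 0. For some markers both knockouts lay on one side of both controls. Cd68, a lysosomal protein of macrophages and of other cells, was at least 2-fold higher in both knockouts than in both controls (4.92 and 3.36 against 11.5 and 13.2 RPKM, change 1.39, adjusted p = 0.105). Vim, Twist1 and Zeb1, 3 of the 7 mesenchymal markers, were below both controls in both knockouts, a pattern of 31.2% of all genes. Their changes were -0.54, -0.63 and -0.52 (limma adjusted p = 0.355, 0.288 and 0.425). After correction for GC content and length they were -0.67, -0.75 and -0.09. For Cdh2, Fn1, Col1a1 and Col1a2 the groups overlapped, with changes of 0.0034, 0.25, -0.97 and -0.53. The part of these markers in the differences of the members was not tested.

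The enzymes and partners of heparan sulfate were followed in 7 lists of 77 genes, 55 of them tested. None passed the adjusted p of 0.05 (limma, Benjamini-Hochberg, with or without voom), and 10 (18.2%) had an unadjusted p under 0.05, beside 19.1% of all genes. Both knockouts were below both controls for 20 genes (36.4%, beside 31.2% of all genes) and above for 10 (18.2%, beside 21.9%). The median change over the lists was -0.12. Counts of single lists, given next, are to be read beside the same shares of 31.2% below and 21.9% above. The vector control was the lowest library for 19 (34.5%, beside 18.1% of all genes).

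Chain synthesis gave values in both directions. In the list of linker and chain polymerization, 4 of 10 tested genes were below and 4 above, with the largest change in Extl1 (0.66, adjusted p = 0.357) and the smallest in Extl2 (-0.69, adjusted p = 0.269). Of the 6 tested modifying enzymes, 3 were below and none above. Hs2st1, the only 2-O-sulfotransferase of heparan sulfate, stood at 72.3, 64.0, 36.3 and 30.5 RPKM in the parental, vector control, exon 3 and exon 2 lines, a change of -1.01 (SE 0.298, adjusted p = 0.139). Both knockouts were below both controls, and the change was -0.81 after correction for GC content and length. At the other end was Ndst2, an N-deacetylase and N-sulfotransferase, with 0.01. In precursor supply, Papss1, which makes the sulfate donor, changed by -0.76 (adjusted p = 0.201) and Slc35b2, which carries that donor into the Golgi, by 0.49 (adjusted p = 0.387), with 3 of 6 below and 1 above.

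Chain degradation had 3 of 9 tested genes above (33.3%, beside 21.9% of all genes) and none below. Hpse, the heparanase that cuts chains outside the cell, stood at 6.27, 1.86, 13.8 and 5.53 RPKM in the same order of lines, so that the groups overlapped, with a change of 1.11 (SE 0.501, adjusted p = 0.259). That change was 0.43 against the parental line alone, 1.78 against the vector control alone and 0.52 without the exon 3 knockout. As with both sulfatases the vector control was lowest, and parental Hpse was 3.37 times its level. Ids, a lysosomal sulfatase, was at the other end with -0.46.

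Other core proteins included Nrp1, a co-receptor that can carry heparan sulfate, at 3.98, 10.7, 1.69 and 0.912 RPKM, with a change of -1.75 (SE 0.447, adjusted p = 0.116), and Agrn at the other end with 0.15. Against the parental line alone the change of Nrp1 was -1.14, and against the vector control alone -2.37. Of the 6 tested, 2 were below and none above. Among genes of release and of partners of syndecan tails, 5 of 9 (55.6%) were below both controls, beside 31.2% of all genes, and none above. Adam17, a membrane protease that sheds syndecan ectodomains among many substrates, stood at 34.9, 43.0, 13.8 and 16.7 RPKM. Of the 55 tested genes of the lists, only Adam17 was at least 2-fold lower in all 4 pairs on the scale of log2(RPKM + 1). Among all tested genes, 1.73% were so. With a pseudocount of 0.1, Nrp1 was so as well. The change of Adam17 was -1.30 (SE 0.311, limma adjusted p = 0.105). It was -1.15 against the parental line alone, -1.45 against the vector control alone and -0.74 after correction for GC content and length. After that correction Adam17 was no longer 2-fold lower in all pairs. Notum, a secreted enzyme first described as releasing glypicans, was at the other end with 0.52 (adjusted p = 0.466), which was 0.06 against the parental line alone and 0.98 against the vector control alone.

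Of the ligands and receptors that bind heparan sulfate, 9 of 17 were tested, with 3 below and 2 above. Ptn, the growth factor pleiotrophin and a syndecan ligand, stood at 73.6, 37.6, 13.1 and 27.9 RPKM. Its change was -1.41 (SE 0.418, limma adjusted p = 0.139), being -1.88 against the parental line alone and -0.93 against the vector control alone. Pdgfb, a platelet-derived growth factor chain that heparan sulfate retains near its source, stood at 3.97, 2.28, 6.10 and 14.4 RPKM. The change of Pdgfb was 1.37 (SE 0.426, limma adjusted p = 0.153), being 1.07 against the parental line alone and 1.67 against the vector control alone. In each gene both knockouts lay on one side of both controls.

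**Figure D4:**
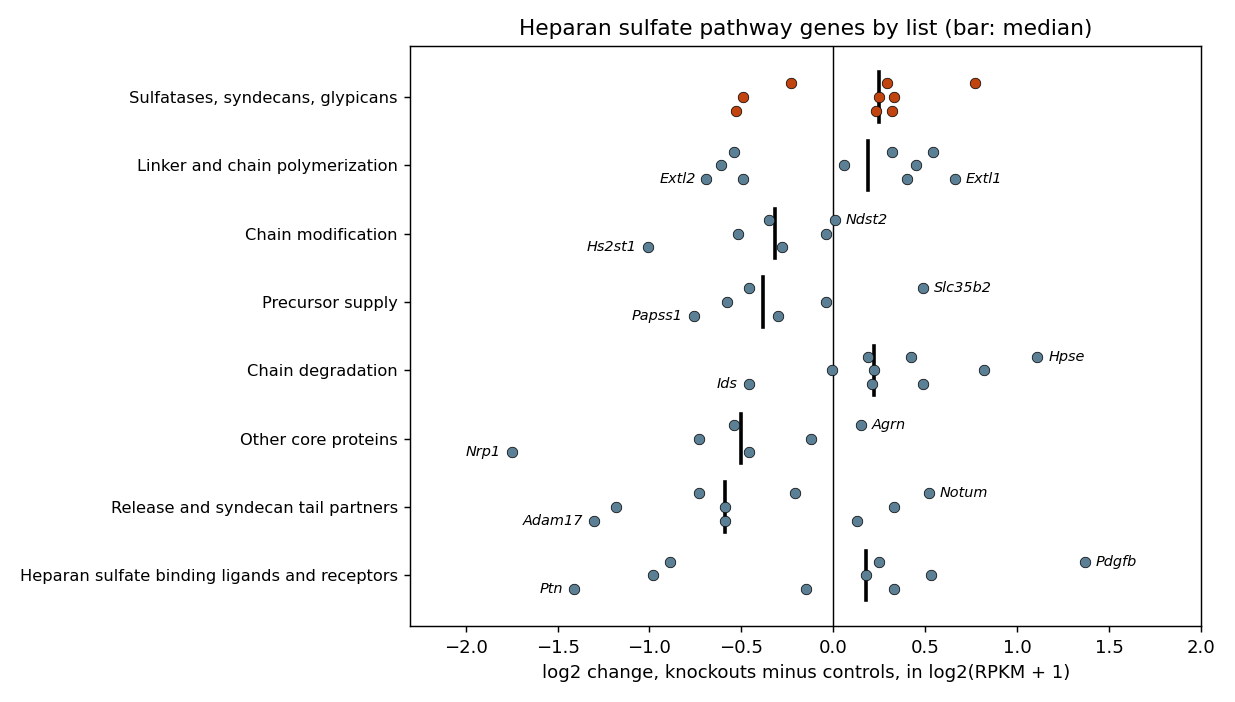
Change in log2(RPKM + 1), knockouts minus controls, of each tested gene (points) with the median of its list (bars), for the members in the top row and 7 pathway lists under it; the largest and smallest change of each list are named. The members lie between -0.53 and 0.77, inside the range from Nrp1 (-1.75) to Pdgfb (1.37).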

How the data were processed

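RNA-seq of 4 cell lines was analysed from the table the authors deposited, which holds RPKM values without log scale. Per the submitters' processing notes, CASAVA 1.8, GSNAP and GRCm38 were used, and the gene model and counting rule are not given in the sources used here. For the members the lengths behind the RPKM equal or exceed the GENCODE coding lengths, most of all for Sulf1 (3404 against 2613 bases). All 4 columns were matched to libraries, with 0 left over. Groups came from the sample titles.

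RPKM ratios brought 100% of 15405 genes above 0 to whole reads (tolerance 0.001 reads). Reads in genes numbered 14734776 to 20583521 per library. Intervals cover counting error only. Symbols were matched to GENCODE M21 (99.51%).

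Genes with mean RPKM of at least 1 were tested with limma (version 3.58.1, R 4.3.3), with an intensity trend, on log2(RPKM + 1), 2 knockouts against 2 controls, without covariates, and with Benjamini-Hochberg adjustment over all 10871 genes at 0.05. Because the values are RPKM, the count alternative was voom on the recovered reads. Family sums were compared by exact permutation tests (scipy 1.17.1, Python 3.11.15, numpy 2.4.6, pandas 2.3.3). The fit was also run on simulated data in which every gene had the same spread, unlike in these data, and no conclusion is drawn from it.

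The members and lists were chosen with earlier results of these data known. Named were all 10 members, S100a4, and, per pathway list, the genes at least 2-fold apart in all 4 pairs and the tested genes with the largest and smallest change, and for each sulfatase its 3 nearest genes and nearest member. Alternatives were a pseudocount of 0.1, median ratio scaling, quantile normalization, correction for GC content and length (splines with 5 degrees of freedom), no filter or one at mean RPKM of 5, no trend, a robust prior, voom, 3-fold in place of 2-fold and leaving out each library.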

Additional observations from a re-analysis of the deposited data

Results flagged for a closer look

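Among the members and the pathway genes named by rule, the knockouts of Gpc1 and Ndst2 lay on opposite sides of both controls. This pattern was shown by 7.88% of the 10871 tested genes, and the difference was not tested, with 1 library per line. In the pathway lists Hs3st1 and Sdcbp2 showed it too, with exon 2 minus exon 3 differences of 1.40 and 0.85 in log2(RPKM + 1). Gpc1 stood at 95 RPKM in exon 3 and 47.8 in exon 2 knockout cells, beside 94.0 in parental and 66.9 in vector control cells, a difference of 0.98 (exon 3 minus exon 2) in log2(RPKM + 1). Its exon 3 value exceeded the parental one by only 0.02 on that scale. Ndst2 stood at 9.64 RPKM in exon 3 and 10.3 in exon 2 knockout cells, beside 9.82 and 9.95 in the controls, a difference of -0.09.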

How the results depend on the processing

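No paired analysis was possible because the labels pair no samples. All alternatives named above were run. With all 4 libraries kept, no member passed the adjusted p, and 7 of the 9 kept their direction. The exceptions were Sdc1 (-0.0031) and Sdc4 (-0.0023) after GC and length correction, where Sulf1 went from -0.53 to -0.07 and the member median became -0.0023 and the pathway median 0.01. Both knockouts were below both controls for 0 members with quantile normalization and above for 2 (Sdc4, Gpc6) with median ratio scaling, and the 1 member above was Gpc4 after GC correction and Gpc6 with quantile normalization. Over all genes limma called 2, but 285 with a robust prior and 32 above mean RPKM 5, 1 with pseudocount 0.1 or quantile normalization, and 0 with voom, median ratio scaling, GC correction or no filter. The robust prior called 2 pathway genes, Nrp1 (adjusted p = 0.027) and Adam17 (adjusted p = 0.0279). Pathway genes 2-fold lower in all pairs numbered 0 after GC correction, 2 with pseudocount 0.1 and 0 at 3-fold. A different member was 2-fold lower in the exon 2 than in the exon 3 knockout with pseudocount 0.1 (Sulf1, -1.21) and with median ratio scaling (Gpc1, -1.01). Genes with both knockouts below or above both controls numbered 3395 and 2384, but 2612 and 3015 with quantile normalization and 2256 and 2818 after GC correction, with the median of all genes moving from -0.08 to 0.04 and 0.05.

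Leaving out 1 library in turn, where the library left alone in its group is assumed to vary like the other group, gave a change of -1.74 to 0.68 for Sulf1, -0.47 to 1.10 for Sulf2, -0.02 to 0.52 for Sdc1, -0.13 to 0.58 for Sdc2, -0.72 to 0.26 for Gpc1, -0.02 to 1.55 for Gpc4, -0.03 to 0.05 for Ndst2, -0.97 to 0.05 for Ids, -0.28 to 0.58 for Agrn, 0.43 to 1.78 for Hpse and 0.06 to 0.98 for Notum. Members past the adjusted p numbered 0 to 1: Sulf1 without the vector control and Gpc4 without the parental line. Members below numbered 1 to 3, above 1 to 7, 2-fold lower 0 to 1 and 2-fold higher 0 to 1, with a median of -0.13 to 0.58. Over all 10871 genes such patterns were also more common, with 4431 to 5140 below and 3400 to 4113 above. With all libraries kept they numbered 3395 and 2384. Pathway genes past the adjusted p numbered 0 to 5 (5 with either one of the controls left out), below 21 to 31, above 14 to 22, 2-fold lower 2 to 5 and 2-fold higher 0 to 3, with a median of -0.28 to 0.0013. The log2 ratio of sums was -0.60 to 1.19 for sulfatases and -0.24 to 0.47 for glypicans. Over all genes limma called 451 without the vector control, 788 without the parental line, and 4 and 3 without the exon 3 and exon 2 knockout. With 1 library per line, the spread within a line is unknown.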

Other observations

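Several genes outside the members also differed between the controls, and they were chosen after their values were seen. Hspg2, the basement membrane proteoglycan perlecan, stood at 121 RPKM in parental cells, 40.6 in vector control cells, 49.5 in exon 3 and 46.6 in exon 2 knockout cells. Col18a1, the heparan sulfate carrying collagen XVIII, stood at 241, 33.4, 59.0 and 49.6 RPKM in the same order, so that for both genes the parental line was far above the other 3 lines. Cxcl12, a chemokine that heparan sulfate binds, stood at 97.1, 30.6, 14.3 and 57.6 RPKM, and its groups overlapped. Adam10, a second syndecan sheddase, stood at 79.1, 53.1, 21.8 and 36 RPKM, with both knockouts below both controls, a change of -1.18 (SE 0.349, limma with Benjamini-Hochberg adjusted p = 0.139) and of -0.54 after correction for GC content and length.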
